A study of Homo sapiens with 24 samples.

Results

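Ribosome-protected fragments (RPF, footprints) were set against INPUT RNA within the HCT15 libraries labelled as overexpressing COPS7B. The members are the 2 RPF and 2 INPUT libraries of that line, 4 of the 24 libraries in the series, chosen by their titles and compared over the 20426 genes that both kinds of table list. HCT15 is a human colorectal cancer cell line, and COPS7B belongs to the COP9 signalosome, which takes the small modifier NEDD8 off cullin ubiquitin ligases. 2 further HCT15 lines were used for comparison, each with 2 RPF and 2 INPUT libraries: one titled PLVX, the name of a lentiviral expression vector, with genotype WT (the vector line), and parental HCT15, also WT. All cells of the series, controls included, were exposed to cycloheximide at 100 µg/mL for 10 min before lysis. The labels give COPS7B overexpression as the genotype. They say neither whether the line is 1 clone nor whether replicates are separate cultures. The p-values below therefore measure library to library spread, part or all of which may be technical. That spread was estimated over all 24 libraries of the series, so the other lines enter it.

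In ribosome profiling, a nuclease digests the mRNA that ribosomes do not cover, and the protected fragments are sequenced. Cycloheximide blocks elongation and holds ribosomes on the message. The footprint count of a gene relative to its RNA count is commonly read as translational efficiency, since a message with densely loaded ribosomes gives more footprints per molecule of RNA. The ratio also carries any difference in how the 2 kinds of library were made, cut, aligned and counted, and here it is called the footprint to INPUT ratio. Genes carry Ensembl identifiers only, of which 0 of 60623 matched a name in the annotation used. Gene lists, cell type markers and the level of COPS7B itself were therefore not analysed here, and genes are described by level, ratio and behaviour in the other HCT15 lines.

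The RPF libraries held 3955250 and 4307290 counts over the shared genes, and the INPUT libraries 1622487 and 2934789. Across the series these totals ran between 84262 and 4679279 for RPF and between 960395 and 6596429 for INPUT. Footprints were counted for 14234 and 14518 genes, and INPUT RNA for 13633 and 14496. Reads assigned to more than 1 gene and set aside as ambiguous made up 0.742% and 0.748% of reads in the RPF libraries, against 4.97% and 5.13% in the INPUT libraries. Reads that fell on no counted feature made up 12.6% and 12.5% in RPF, against 4.75% and 7.89% in INPUT. Reads not uniquely aligned made up 22.6% and 22.4% in RPF, against 16.6% and 20.2% in INPUT. The part of these differences in the ratios was not tested. Intervals and floors below cover counting error only.

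The labels were first checked against the similarity of whole profiles, because the level of COPS7B could not be used. Over 13355 genes, Spearman's rho between footprint libraries of the COPS7B-labelled line and those of the vector line was 0.75 to 0.778, and 0.679 to 0.71 with parental HCT15. The vector line and parental HCT15 were closer to each other, at 0.814 to 0.887. In INPUT RNA the COPS7B-labelled libraries correlated at 0.725 to 0.735 with the vector line and at 0.68 to 0.71 with parental HCT15. With HCT116, another colorectal cancer line, their INPUT RNA correlated at 0.741 to 0.757, above the vector line and parental HCT15. Footprints of the COPS7B-labelled libraries correlated with those of HCT116 at 0.655 to 0.663, below the vector line and parental HCT15. The vector and parental INPUT libraries correlated at 0.9 to 0.922. These are correlations across genes within pairs of libraries, and genes are not independent replicates.

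**Figure D1:**
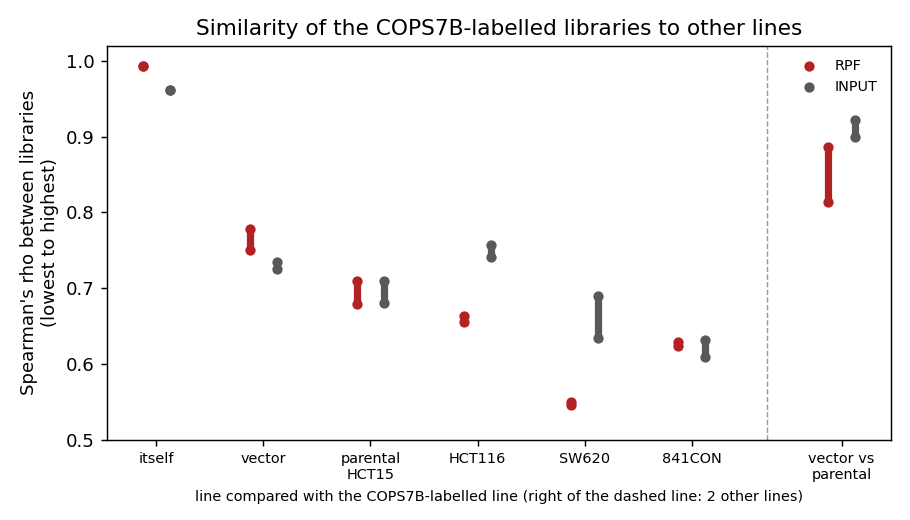
Spearman's rho over genes between libraries of the COPS7B-labelled line and libraries of each line named below the axis, for footprints (RPF) and for INPUT; each bar runs between the lowest and the highest library pair. The vector and parental lines, right of the dashed line, lie closer to each other (INPUT 0.9 to 0.922) than the COPS7B-labelled line lies to either. In INPUT the COPS7B-labelled line lies closest to HCT116 (0.741 to 0.757).

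A set of genes was counted in the COPS7B-labelled line and not in parental HCT15. 110 genes reached at least 20 CPM (counts relative to the library total) in all 4 COPS7B-labelled libraries and had no count in any of the 4 parental libraries. The reverse held for 1 gene. Between the vector line and parental HCT15 there were 0 such genes in either direction. More of the shared genes were detected in the COPS7B-labelled libraries, 13633 to 14518 in each, than in the parental libraries, 10942 to 12311. The part of this in the 110 genes against 1 was not tested. The 110 genes made up 0.827% and 0.817% of counts in the COPS7B-labelled RPF libraries and 0.749% and 0.738% in its INPUT libraries. Of the 110 genes, 101 had a footprint count in the vector line and 37 an INPUT count. Their summed footprint level there was 3.73% of that in the COPS7B-labelled line. The same criterion gave 16 genes against the vector line, 97 against HCT116, 141 against 841CON, labelled as normal colon epithelial cells, and 169 against SW620, a colorectal cancer line. The libraries are therefore called COPS7B-labelled throughout, and whether they differ from the other HCT15 lines by more than the transgene was not tested. The growth protocol in the labels also gives a medium for 293TN cells, under which no library of the series is titled, and whether these libraries hold RNA of HCT15 alone was not tested. Differences between the lines below carry the same limit. The criterion asked for at least 20 CPM in both assays, which leaves out genes near 0 in one of them. None of the 110 genes passed the footprint against INPUT test below, against 5.3% of all tested genes. The median log2 ratio of the 110 genes was 0.13.

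The 2 footprint libraries were much closer to each other than the 2 INPUT libraries. The biological coefficient of variation was 0.0394 for the RPF pair and 0.214 for the INPUT pair, over 11451 and 11453 genes. The SD of the log2 difference between replicates was 0.26 for footprints and 0.51 for INPUT. Both pairs differed by more than sampling noise, with a chi-square statistic per degree of freedom of 1.67 for RPF and 9.53 for INPUT, and each library was counted as 1 replicate as labelled. This does not show that the RPF pair came from separate cultures, and counts of calls with the pair summed are given beside the main ones. The coefficients of the vector line were 0.368 for RPF and 0.257 for INPUT, and in parental HCT15 0.671 and 0.615.

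Footprint and INPUT levels followed each other across genes in this line. Spearman's rho was 0.834 and 0.803 between RPF replicate 1 and the INPUT replicates 1 and 2, and 0.837 and 0.806 for RPF replicate 2, as a description across genes. The SD of the log2 ratio over genes was between 1.03 and 1.09 in the 4 pairings. A gene was tested when its CPM averaged over the 4 libraries was at least 5, which 11476 genes reached. Of these, 76.7% had a ratio within 2-fold of even. The lower and upper quartiles were -0.52 and 0.54 on the log2 scale, around a median of 0.04.

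With edgeR's quasi-likelihood test and a Benjamini-Hochberg adjusted p under 0.05, 608 of 11476 genes (5.3%) were called. Footprints were higher than INPUT for 299 genes (2.61%) and lower for 309 (2.69%). At an unadjusted p under 0.05 the number was 1930. The count depended strongly on the fit. It was 4574 in edgeR on the 4 libraries alone, 4409 and 1164 in limma with a weight per library and per assay, 1052 in DESeq2 and 78 in edgeR with close replicate pairs, the RPF pair among them, summed into 1 library each. Each library bore on the count: 194 and 189 genes were called without RPF replicates 1 and 2, and 253 and 220 without INPUT replicates 1 and 2. By level alone, both RPF libraries lay above both INPUT libraries for 4412 genes (38.4%) and below them for 3866 (33.7%). The split of calls depended on the scaling, which took trimmed means over all 24 libraries. With trimmed means taken within each assay there were 213 higher and 386 lower calls, and with no scaling beyond library totals 211 and 392. The median log2 ratio of tested genes was then -0.11 and -0.15 in the same order. DESeq2, which changed the test and the size factors together, gave 383 higher and 669 lower calls and a median of -0.14. Ratios are thus relative to the middle gene, and a shift of all mRNAs together would not show.

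**Figure D2:**
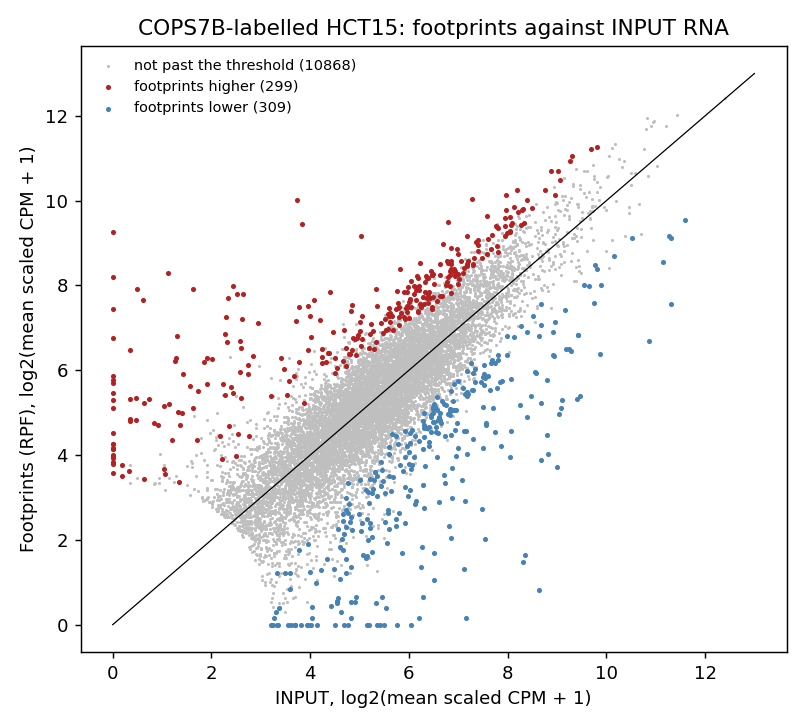
Mean scaled CPM of each tested gene in footprints (vertical) and INPUT (horizontal) of the COPS7B-labelled line, both as log2(CPM + 1), with the line of equality. Red points are the 299 genes with higher and blue points the 309 with lower footprints than INPUT, and points along an axis are genes with almost no count in one assay.

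The 299 genes with more footprints than INPUT had a median level of 178 CPM in footprints and 47.1 CPM in INPUT. Over all tested genes the medians were 36.7 and 37.25 CPM, and genes chosen for a high ratio tend to be high in footprints. The 299 genes carried 9.21% and 9.16% of all footprint counts against 3.31% and 2.92% of INPUT counts. The median log2 ratio was 1.84, a 3.58-fold excess, with genes at 0 taken at their bound, and 128 of the genes exceeded 4-fold. The smallest called log2 ratio was 0.98.

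The 309 genes with fewer footprints than INPUT differed by more. Their median level was 14.6 CPM in footprints and 83.6 CPM in INPUT, and they carried 1.34% and 1.36% of footprint counts against 8.07% and 7.07% of INPUT counts. The median log2 ratio was -2.58, a 5.99-fold deficit, again with genes at 0 at their bound, and 203 genes exceeded 4-fold. 24 of the 309 genes had no footprint in either RPF library, and 22 of the 299 higher genes no count in either INPUT library. The smallest called log2 difference was -1.11.

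The ratio also followed the level of the gene. That level is the mean over the same 4 libraries that give the ratio, so level and ratio are not independent. Among the 1000 tested genes averaging 5 to 10 CPM over the 4 libraries the median log2 ratio was -0.22. It was -0.06 for the 3544 genes at 20 to 50 CPM, 0.25 for the 1572 genes at 100 to 200 CPM and 0.55 for the 66 genes at 1000 CPM and over. The calls did not follow this order throughout. Genes called higher and lower numbered 19 and 23 at 5 to 10 CPM, 19 and 38 at 10 to 20 CPM, 40 and 77 at 20 to 50 CPM and 48 and 73 at 50 to 100 CPM. They numbered 78 and 46 at 100 to 200 CPM, 65 and 37 at 200 to 500 CPM, 23 and 8 at 500 to 1000 CPM, and 7 and 7 at 1000 CPM and over. The median also differed by level in the vector line, being -0.39 at 5 to 10 CPM and 0.71 at 1000 CPM and over, and in parental HCT15, where it was -0.55 and 0.87. In the COPS7B-labelled line the trend was thus present with a smaller range, a difference between lines that was not tested.

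**Figure D3:**
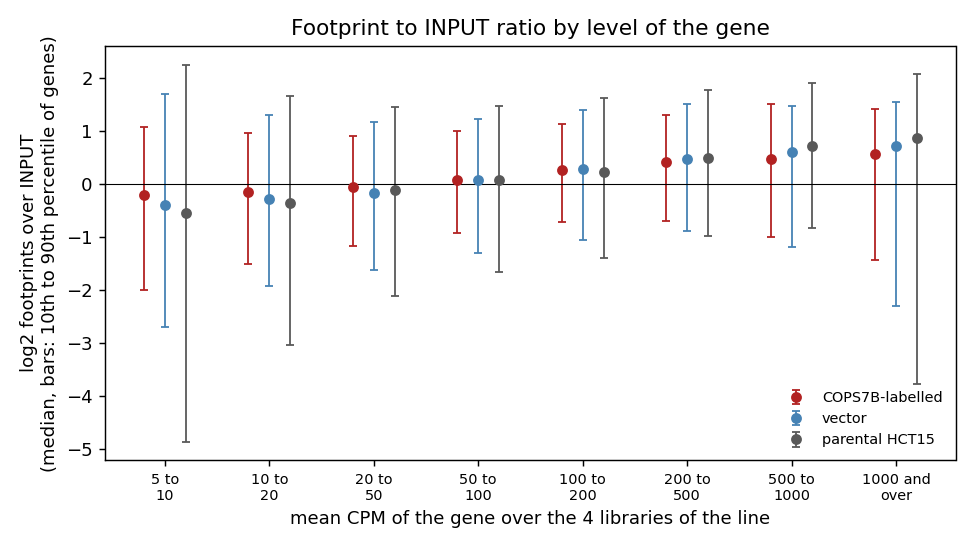
Log2 ratio of footprints to INPUT (vertical) for genes grouped by mean CPM over the 4 libraries of their line (horizontal), for the COPS7B-labelled, vector and parental lines; points are medians and bars the 10th to 90th percentile of genes. The COPS7B-labelled medians run between -0.22 in the lowest and 0.55 in the highest group.

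The concentration of counts differed between the assays in the same sense, from the same counts and so not as separate support. In the RPF libraries 1124 and 1126 genes held 50% of all counts, against 1320 and 1434 in the INPUT libraries. The 10 most counted genes held 3.96% and 3.97% of footprint counts, against 3.78% and 3.17% of INPUT counts, so no handful of genes dominated either assay.

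Some genes were counted in 1 assay alone. Of the 20426 shared genes, 14004 had a count in both assays, 951 in footprints alone and 786 in INPUT alone, and 4685 in neither. Most of the single-assay genes were near the limit of detection: 101 of those seen in footprints alone and 73 of those seen in INPUT alone had more than 10 counts. 22 genes averaged at least 50 counts in footprints, with a highest mean of 2747, and had no count in either INPUT library. Of these, 15 had no count in any of the 12 INPUT libraries of the series, and 21 were called. The other way round, 11 genes averaged at least 50 counts in INPUT, with a highest mean of 168.5, and had no footprint. 8 of them had no footprint in any of the 12 RPF libraries of the series, and all 11 were called. The calls in both sets add nothing to the counts, since the genes were chosen by the same counts. Of all tested genes 5.3% were called. The sources used here do not give the feature counted in each assay, and its part in these genes was not tested.

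ENSG00000254772 had the largest excess of footprints. It had 2641 and 2853 counts in the RPF libraries, or 610.2 ± 0.735 scaled CPM (SD, n = 2), against 0 and 0 counts in the INPUT libraries. Against a floor of 3 counts over both INPUT libraries, footprints were at least 1160-fold higher (edgeR adjusted p = 1.24e-07). The groups did not overlap. In the vector line it had 488 and 315 footprint counts and in parental HCT15 348 and 1349, against 0 in all 4 INPUT libraries of those lines, so the absence from INPUT was shared by all 3 HCT15 lines.

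ENSG00000214736 followed, with 1195 and 1443 counts in the RPF libraries, or 292.4 ± 23.4 scaled CPM (SD, n = 2), against 0 and 0 in the INPUT libraries. Its footprints were at least 555-fold higher (edgeR adjusted p = 5.23e-07). It too had no INPUT count in the vector or the parental line, where footprints stood at 229 and 222 counts and at 599 and 965 counts.

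ENSG00000134287 ranked first among the deficits of footprints, genes at 0 being ranked by their bound. ENSG00000127540, with no footprint count against 166 and 171 INPUT counts, was fitted lower, at -10.14. Its bound of at least 178-fold placed it below, so which of these deficits was larger is not known. ENSG00000134287 had 0 and 1 counts in the RPF libraries, against 291 and 501 counts in the INPUT libraries, or 140.8 ± 7.29 scaled CPM (SD, n = 2). The pooled fold was 1250 lower in footprints, with a 95% Poisson interval of the 1 footprint count running between 225 and 49500. The fitted log2 ratio of the 4 libraries was -9.71 (SE 0.65, edgeR adjusted p = 5.66e-07). In the vector and parental lines it had 0 footprint counts in all 4 RPF libraries. INPUT counts there were 358 and 205 in the vector line and 1596 and 634 in parental HCT15. INPUT counts with at most 1 footprint count were thus common to the 3 lines. The part of read assignment in this was not tested.

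ENSG00000147604 had 2 and 5 counts in the RPF libraries, against 950 and 1170 counts in the INPUT libraries, or 396.7 ± 113 scaled CPM (SD, n = 2). Its fitted log2 ratio was -8.90 (SE 0.60, edgeR adjusted p = 3.98e-07), and the pooled counts gave a 480-fold deficit with a 95% Poisson interval of 233 to 1190. In the vector line it had 0 and 1 footprint counts against 914 and 391 INPUT counts. Parental HCT15 had 0 footprint counts and a much lower INPUT level, of 20.0 and 16.4 scaled CPM, and the ratio there rested on fewer counts.

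**Figure D4:**
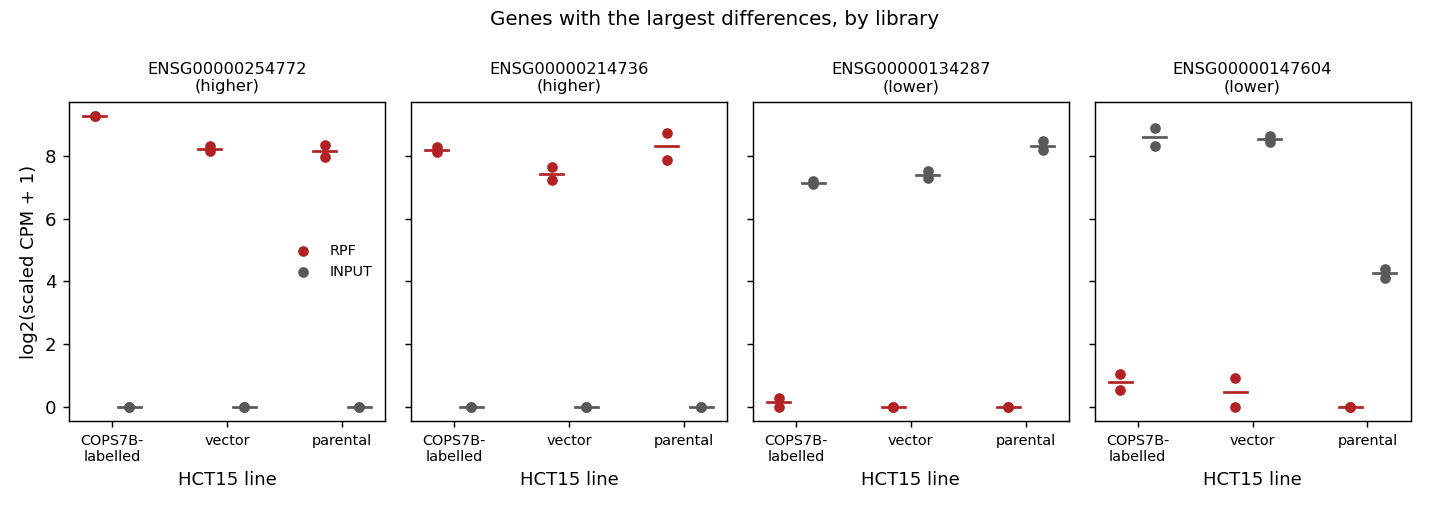
Log2(scaled CPM + 1) of the 4 genes ranked first and second per direction, genes at 0 being ranked by their bound, in the COPS7B-labelled, vector and parental lines; each point is 1 library, red for RPF and grey for INPUT, and short lines are group means. In each gene one assay lies at or near 0 in all 3 lines.

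The 10 largest differences in each direction were shared with the other HCT15 lines. Genes were eligible for these when called, with no overlap between RPF and INPUT libraries and a mean of at least 50 counts in the higher assay, which left 294 higher and 283 lower genes. By fitted fold, or by the bound for genes at 0, the 10 largest excesses ranged between 108-fold and 1160-fold, 5 of them bounds. The 10 largest deficits ranged between 126-fold and 838-fold, 4 of them bounds. All 10 excesses and all 10 deficits were called in the same direction in the vector line by the same test. In parental HCT15 the numbers were 10 of 10 excesses and 9 of the 9 deficits that could be tested. Of all genes tested in the line pair, 5.49% were called higher and 7.75% lower in the vector line. The shares in parental HCT15 were 12.5% and 14.8%. Among all genes called in the COPS7B-labelled line, the shares called alike in the vector line were 79% and 92.9%.

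The whole set of called genes was then followed in the libraries of the other lines, whose levels do not enter the contrast that called them, although all lines share 1 estimate of spread. The vector line had 1362 of 10607 tested genes (12.8%) called, 580 higher (5.47%) and 782 lower (7.37%). Of the 299 higher genes 290 were tested there: 289 were above 0 against 49.3% of all genes tested in both lines, and 229 were called higher (79%) against a background of 5.49%. Their median log2 ratio in the vector line was 1.84. Of the 309 lower genes 295 were tested there: all 295 were below 0, and 274 were called lower (92.9%) against 7.75%. Their median there was -2.85. These counts fell to between 68 and 213 higher and between 76 and 238 lower in fits that left out 1 library of either line. The shared calls made up 42.1% of the vector line's higher and 35.7% of its lower calls among genes tested in both.

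Parental HCT15 gave more calls of its own. There, 2743 of 10284 tested genes (26.7%) were called, 1250 higher (12.2%) and 1493 lower (14.5%). Of the COPS7B-labelled line's higher genes 285 were tested, and 235 (82.5%) were called higher and 2 lower. Of its lower genes 294 were tested, and 255 (86.7%) were called lower and 0 higher. In fits that left out 1 library, between 65 and 268 higher and between 72 and 316 lower calls were shared. The shared calls made up 19.5% of parental higher and 17.8% of parental lower calls. Over all 3 lines 9463 genes were tested, of which 200 were called higher and 236 lower in each line. The log2 ratios of the COPS7B-labelled line correlated across genes with those of the vector line (Pearson's r = 0.828, Spearman's rho = 0.798, 9909 genes) and with those of parental HCT15 (r = 0.713, rho = 0.649, 9628 genes), each on separate libraries made by the same protocol.

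**Figure D5:**
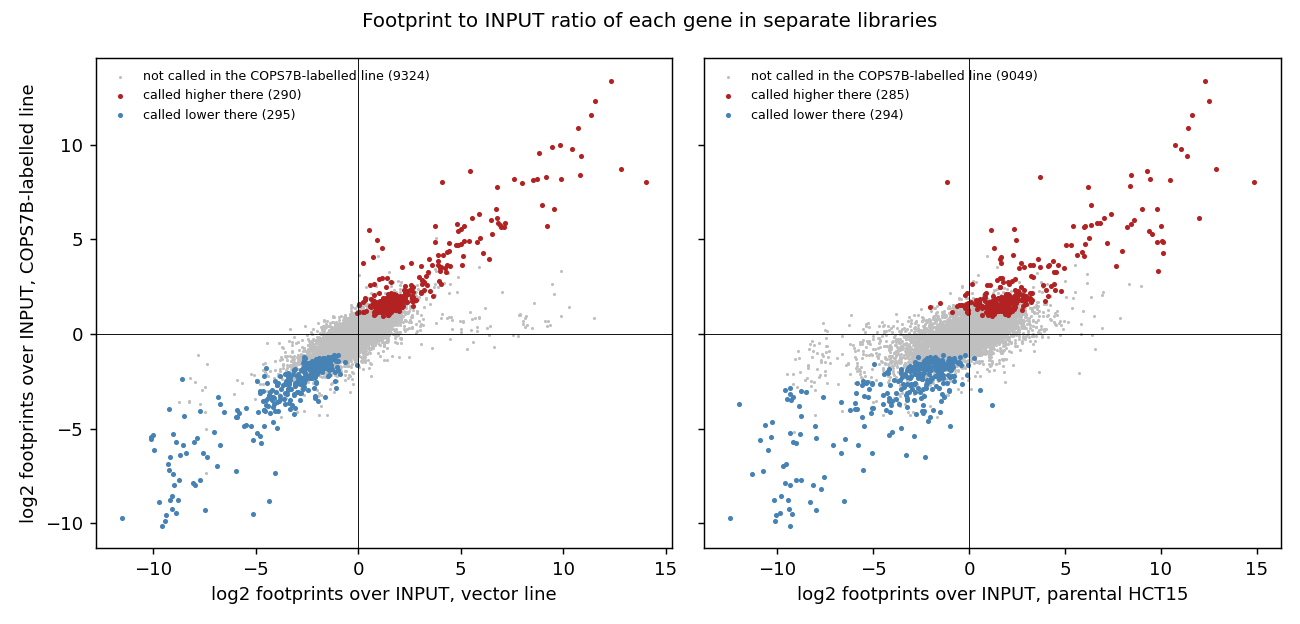
Log2 ratio of footprints to INPUT of each gene in the COPS7B-labelled line (vertical) against the vector line (left) and parental HCT15 (right); red and blue mark genes called higher and lower in the COPS7B-labelled line. Nearly all coloured points lie in the quadrants of equal sign, 289 of 290 red points and all 295 blue points against the vector line.

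The difference of the ratio between lines was tested directly as an interaction of assay and line in the same edgeR fit. Against the vector line, 3 of 9909 genes (0.0303%) were called, 0 higher (0%) and 3 lower (0.0303%), with 213 at an unadjusted p under 0.05. None of the 290 higher and 295 lower genes of the COPS7B-labelled line that were tested here was among the 3. The 3 calls depended on single libraries: leaving out any one of 5 libraries (either COPS7B-labelled RPF replicate, COPS7B-labelled INPUT replicate 1 or either vector INPUT replicate) left 0 calls, with 122 to 184 genes at an unadjusted p under 0.05. Leaving out vector RPF replicate 2 left 1 call, which was none of the 3. DESeq2 called 12 genes, and edgeR with close pairs summed called 0, with 65 at an unadjusted p under 0.05.

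ENSG00000133124 had the largest fitted difference, which for a gene at 0 in a group depends on the prior count and is no bound. The COPS7B-labelled line had 4238 and 4583 counts in RPF against 853 and 2186 in INPUT, a pooled ratio of 1.83 (95% Poisson interval of the INPUT count 1.77 to 1.90). The vector line had 61 and 80 footprint counts against 0 and 0 in INPUT, a ratio of at least 61.0 against the floor of 3 counts. The difference was fitted at -8.97 on the log2 scale (edgeR adjusted p = 0.0241). All 4 parental libraries were at 0, so the gene is 1 of the 110 that were counted in the COPS7B-labelled and not in the parental libraries. Its adjusted p ranged between 0.0224 and 0.534 in edgeR fits without 1 library, and passed only without vector RPF replicate 1.

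ENSG00000244486 had 563 and 617 counts in RPF against 134 and 111 in INPUT of the COPS7B-labelled line, a ratio of 3.04 (interval 2.68 to 3.46). In the vector line it had 257 and 813 footprint counts against 0 and 1 in INPUT. The ratio there was 1390, with an interval of 249 to 54800 from the single INPUT count, and the fitted difference was -8.85 (edgeR adjusted p = 0.0274). Its adjusted p in the same edgeR fits ranged between 0.0116 and 0.692, and passed without vector RPF replicate 1 and without COPS7B-labelled INPUT replicate 2. In both genes INPUT RNA was at or near 0 in the vector line while footprints were counted. In parental HCT15 the ratio of ENSG00000244486 was 3.34 (interval 1.3 to 12.3), from 11 footprint and 4 INPUT counts. The third call was ENSG00000152284, at -6.01 (edgeR adjusted p = 0.0203). Its fitted log2 ratio was 0.43 in the COPS7B-labelled line, 6.44 in the vector line and 0.31 in parental HCT15. For ENSG00000244486 and ENSG00000152284 the parental ratio thus lay by that of the COPS7B-labelled line, away from the vector line.

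Against parental HCT15, 83 of 9628 genes (0.862%) were called, 62 with a higher (0.644%) and 21 with a lower ratio (0.218%) in the COPS7B-labelled line, and 1174 at an unadjusted p under 0.05. Of the genes called within the COPS7B-labelled line, 11 of 285 higher and 6 of 294 lower ones were among them. The count depended on single parental libraries: it was 776 without parental RPF replicate 1, 284 without parental INPUT replicate 2 and 1 without parental RPF replicate 2. Leaving out a COPS7B-labelled library left 2 and 3 calls without INPUT replicates 1 and 2, and 10 and 8 calls without RPF replicates 1 and 2. With close pairs summed there were 2 calls.

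ENSG00000146674 had the largest positive fitted difference from parental HCT15. Its counts were 60 and 73 in RPF against 0 and 0 in INPUT of the COPS7B-labelled line, a ratio of at least 28.0. In parental HCT15 they were 5 and 20 in RPF against 24 and 33 in INPUT, a ratio of 0.533 (interval 0.345 to 0.786). The fitted difference was 9.15 on the log2 scale (edgeR adjusted p = 0.00274). The vector line lay on the side of the COPS7B-labelled line, with a ratio of 17.7 (interval 10.8 to 31.7). The call held without each of the 8 libraries in turn, at an edgeR adjusted p of 0.000268 to 0.0469.

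ENSG00000088832 was next. The COPS7B-labelled line had 81 and 78 counts in RPF against 542 and 716 in INPUT, a ratio of 0.0798 (interval 0.0679 to 0.0932). Parental HCT15 had 0 and 0 footprint counts against 1312 and 412 in INPUT, a ratio of at most 0.00211, and the difference was fitted at 8.31 (edgeR adjusted p = 0.0038). Footprints were thus below INPUT in both lines and lower still in parental HCT15. The vector line, at 0.0632 (interval 0.0409 to 0.0934), had an interval that overlapped that of the COPS7B-labelled line. The call was lost without parental RPF replicate 2 (edgeR adjusted p = 0.0624) and held without each of the other 7 libraries.

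The largest negative fitted difference was that of ENSG00000142408. It had 37 and 30 counts in RPF against 29 and 44 in INPUT of the COPS7B-labelled line, and 14 and 110 in RPF against 1 and 0 in INPUT of parental HCT15. The fitted difference was -7.36 (edgeR adjusted p = 0.0406). ENSG00000176387 followed at -6.58 (edgeR adjusted p = 0.0356), with 45 and 32 counts in RPF against 9 and 33 in INPUT of the COPS7B-labelled line, and 37 and 89 in RPF against 1 and 0 in INPUT of parental HCT15. Footprint levels of ENSG00000142408 were 8.54 and 6.42 scaled CPM in the COPS7B-labelled line, against 9.97 and 26.5 in parental HCT15. Those of ENSG00000176387 were 10.4 and 6.85, against 26.4 and 21.4. The parental INPUT count was 1 for each gene, summed over both libraries. For ENSG00000142408 the vector line lay on the parental side, with a ratio of 52.1 (interval 23.9 to 142) against 0.58 in the COPS7B-labelled line. For ENSG00000176387 it lay on the side of the COPS7B-labelled line, at 1.76 (interval 1.31 to 2.41) against 1.16. Both calls passed only without parental INPUT replicate 2 or parental RPF replicate 1, with edgeR adjusted p of 0.00616 to 0.195 and 0.00722 to 0.177 over the 8 fits.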

How the data were processed

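The authors deposited raw counts per Ensembl gene for each of the 24 libraries, seen in the files as whole numbers with unequal totals. Per the submitters' processing notes, HTSeq 2.0.2, STAR 2.7.9, cutadapt 3.5 and the build GRCh38 were used. Strand setting, feature counted and annotation release are not stated in the labels used here, so overlapping, antisense and near-identical genes are uncertain. For RPF 20426 genes are listed and for INPUT 60623 genes. Of INPUT counts in the COPS7B-labelled line, 18.8% and 12.2% fell outside the shared genes. The 5 summary lines that name no gene were removed. They came with the counts of the COPS7B-labelled and vector lines and of no other line, parental HCT15 included. Any part of this in the differences between lines was not tested. In the COPS7B-labelled line the largest summary line, reads not aligned, held 44.6% and 44.8% of reads in RPF and 49.7% and 30.5% in INPUT.

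One edgeR 4.0.16 quasi-likelihood model (R 4.3.3) with 1 mean for each group and trimmed-mean scaling was fitted to all 24 libraries (12 residual degrees of freedom) over 13355 genes that passed edgeR's filter at a minimum count of 10. Tests were two-sided. Genes needed a mean of 5 CPM in each compared line, with calls at 0.05 after Benjamini-Hochberg adjustment. SEs are the log2 ratio over the root of F. Scaled CPM uses the trimmed-mean library sizes. Named genes are the first 2 of the 10 with the largest change per direction among called genes whose groups did not overlap and whose higher assay averaged at least 50 counts, genes at 0 being ranked by a bound against 3 counts. For differences between lines, they were the largest calls. The rule's demand for 1 gene symbol could not be applied. Alternatives changed the scaling, tool (DESeq2 1.42.0, limma 3.58.1), filter, libraries and depth. The procedure was tested on simulated data. These had the same spread in every library, unlike the replicate pairs here, so the test does not cover unequal spread. Members, lists and rules were chosen with earlier results of these data known.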

Additional observations from a re-analysis of the deposited data

Results flagged for a closer look

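2 kinds of result stood out, differences of the footprint to INPUT ratio between lines and INPUT counts outside the shared genes. The interaction of assay and line passed for 3 genes against the vector line and for 83 genes against parental HCT15, by edgeR's quasi-likelihood test at a Benjamini-Hochberg adjusted p under 0.05. Against the vector line the fitted log2 differences were -8.97 for ENSG00000133124 (COPS7B-labelled ratio 1.83, vector ratio at least 61.0) and -8.85 for ENSG00000244486 (3.04 against 1390). Against parental HCT15 they were 9.15 for ENSG00000146674 (at least 28.0 against 0.533) and 8.31 for ENSG00000088832 (0.0798 against at most 0.00211). They were -7.36 for ENSG00000142408 (0.58 against 151) and -6.58 for ENSG00000176387 (1.16 against 153). In each of these 6 genes at least 1 of the groups compared had 0 or 1 counts, and fitted differences of such genes depend on the prior count.

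IDs listed in the INPUT tables alone held 18.8% and 12.2% of INPUT counts in replicates 1 and 2 of the COPS7B-labelled line. There were 40197 such IDs, of which 2034 and 2998 had more than 3 counts, and none entered a comparison with footprints.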

How the results depend on the processing

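The number of genes called in the COPS7B-labelled line (608) stayed within 1.5 times under either other scaling (599 and 603), without the filter on low counts (716), with the libraries thinned to equal depth (537) and in a fit of the 3 HCT15 lines alone (571). It was 1052 with DESeq2, 1164 and 4409 with limma weighted per assay and per library, and 4574 in a fit of the 4 libraries alone. It was 78 with close replicate pairs summed, 315 of 8305 genes with at least 50 counts in both assays, 312 with the replicate number as a block, 229 for changes over 2-fold, and 189 to 253 without 1 library. The 3 genes that differed from the vector line became 12 with DESeq2, 5 and 37 with limma per assay and per library, 9 in a fit of the libraries compared and 14 without the filter. They became 0 with close pairs summed, at 50 counts, under the replicate block and in the 3 HCT15 lines (65, 69, 173 and 273 at an unadjusted p under 0.05), and 0 to 3 without 1 library. The 83 that differed from parental HCT15 became 330 with DESeq2, 408 and 6 with limma, and 0 in a fit of the libraries compared (1237 at an unadjusted p). They became 2 with close pairs summed, 242 without the filter, 3 at 50 counts, 3 under the replicate block, 18 in the 3 HCT15 lines and 1 to 776 without 1 library. The cause was not tested, beyond fewer libraries or genes where the alternative removes them. The 4 genes named within the line kept their calls in all 16 alternatives run for each. The weights per library and the fit of 3 lines were chosen after seeing the data. Where 1 library remained in a group, its spread was taken from the other groups. The labels do not say that replicate numbers pair the samples. Deviations of same-numbered libraries correlated at 0.0036 in the COPS7B-labelled, 0.212 in the vector and -0.0241 in the parental line, with -0.118 to 0.212 over all lines, so the block was kept as an alternative. Leaving out mitochondrially encoded genes was not run.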
